A study of Mus musculus with 6 samples.

Results

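The 53 genes described here are imprinted genes of the mouse, which are expressed mainly or only from the chromosome inherited from one parent. They were taken as a fixed list, matched by symbol to GENCODE release M21, and all 53 were found among the 48526 Ensembl genes of the count tables. The list falls into 19 loci, with 28 genes known to be expressed from the paternal chromosome, 24 from the maternal chromosome, and Gnas, whose expressed allele depends on the isoform. These parental assignments are textbook background: the counts carry no allele information, and some of the genes are imprinted only in brain or placenta.

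RNA was sequenced from primary renal tubular epithelial cells, cultured from digested kidney cortex of mice of 4 to 5 weeks in medium that held, among other additives, 20 ng/ml of EGF and 100 nM of hydrocortisone. The KO group comprised 3 cultures from Setd2(F/F)Ksp-Cre+ mice, in which both Setd2 alleles are floxed and a Ksp-Cre transgene places Cre under the Cdh16 promoter, active in the epithelium of kidney tubules. The WT group comprised 3 cultures from Setd2(F/F) littermates, which carried the same floxed alleles without Cre. Cre was present in the KO cultures alone, so effects of Cre and of the Setd2 deletion cannot be told apart. The labels do not tie each replicate to its own animal, so the spread that p-values measure may in part be technical.

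Imprints are DNA methylation marks at control regions that are set in the egg or sperm and then kept through the cell divisions of the embryo and adult. A control region can act through a long noncoding RNA that silences neighbouring genes in cis, through an insulator, or directly as a promoter, so that several genes of a cluster often share 1 control region. Setd2 encodes the enzyme that trimethylates lysine 36 of histone H3, a mark that recruits de novo DNA methyltransferases and that, in mouse oocytes, takes part in setting maternal imprints. Cre driven by the Cdh16 promoter is meant to delete Setd2 in kidney epithelium, whereas imprints are set in the egg or sperm.

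The libraries held 89951455 to 96917379 counted reads in KO and 86078636 to 106974842 in WT. Setd2 was at 163, 154 and 158 CPM (reads scaled to library size with TMM factors) in KO replicates 1 to 3, against 185, 168 and 152 CPM in WT replicates 1 to 3, with an exact two-sided permutation p of 0.5, where 0.1 is the smallest p that 3 against 3 allows. Gene-level counts add the reads of all exons, and which exons are floxed was not stated in the labels, so Setd2 counts do not check the deletion. The epithelial genes Krt8, Epcam and Cdh16 averaged 2593, 376 and 884 CPM in KO and 2587, 422 and 735 CPM in WT, while the proximal tubule phosphate transporter gene Slc34a1 had 1 read in the 6 libraries together. Xist, which coats and silences 1 X chromosome in female cells, was at 507 and 606 CPM in KO replicates 2 and 3, against 0.386 CPM in KO replicate 1 and 0.348 to 0.683 CPM in WT, so the sex of the mice partly coincided with genotype. Results are therefore also given from a fit with an added Xist term, in which KO replicate 1 carries the comparison with WT.

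Of the 53 imprinted genes, 42 passed the filter on low counts and 6 of these differed between KO and WT (edgeR quasi-likelihood test, Benjamini-Hochberg adjusted p under 0.05), 5 of them higher in KO and 1 lower. Plagl1, Cdkn1c, Phlda2, Zdbf2 and Klf14 were higher in KO and Copg2 was lower. The 6 calls are 14.3% of the tested imprinted genes, beside 21.0% of all 17571 genes tested, of which 12.0% were higher and 9.08% lower. The median log2 fold change of the 42 was 0.13, with a range from -0.43 to 1.26, and that of all tested genes was -0.01. KO lay wholly above WT in 13 of the 42 and wholly below in 4, beside 20.6% and 21.3% of all tested genes (41.9% for both directions). The count of calls rests partly on single libraries: with the Xist term it was 2 higher and 0 lower (Cdkn1c and Plagl1), beside 1163 calls over all genes in that fit, and without WT replicate 3 it was 6 higher and 1 lower, with Kcnq1, H13 and Ube3a gained and Klf14 and Copg2 lost.

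**Figure D1:**
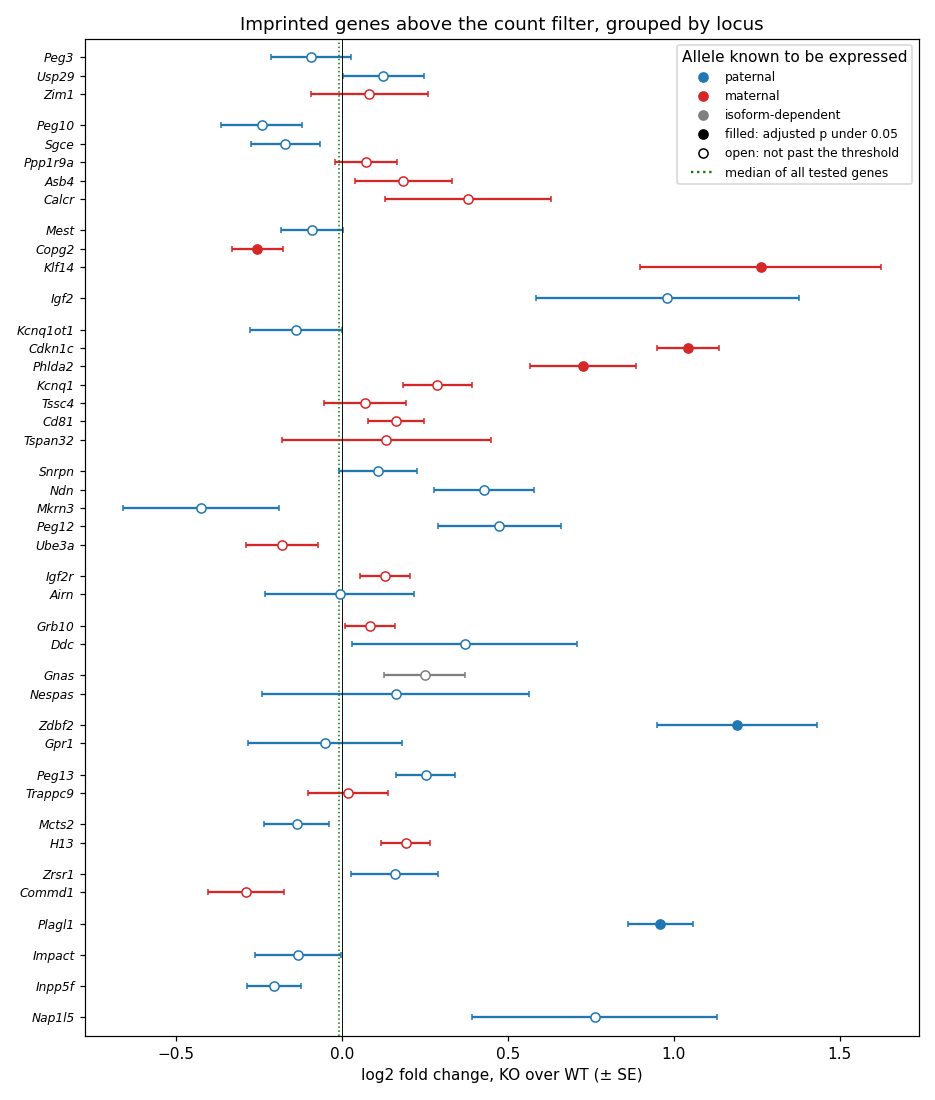
Log2 fold change, KO over WT, of the 42 imprinted genes above the count filter, with standard errors as bars, in locus order from top to bottom. Filled points passed an adjusted p of 0.05, and colour gives the allele known to be expressed: 5 filled points lie to the right of 0 (Klf14, Cdkn1c, Phlda2, Zdbf2 and Plagl1) and Copg2 lies to the left at -0.26.

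By parental expression, 2 of 23 tested paternally expressed genes were higher in KO (Plagl1 and Zdbf2) and 0 were lower in edgeR's test. Of 18 tested maternally expressed genes, 3 were higher (Cdkn1c, Phlda2 and Klf14) and 1 was lower (Copg2). The called share was 8.70% of the paternally and 22.2% of the maternally expressed genes, beside 21.0% of all tested genes (12.0% higher, 9.08% lower). At an unadjusted p under 0.05, 6 paternally expressed genes were higher and 1 was lower, and 5 maternally expressed genes were higher and 2 were lower, beside 18.7% higher and 17.6% lower of all tested genes. DESeq2 called 4 paternally expressed genes higher and 0 lower, and 3 maternally expressed genes higher and 1 lower, beside 22.6% of all genes in either direction. Log2 fold changes lay above 0 in 12 of the 23 paternally expressed and in 15 of the 18 maternally expressed genes, beside 48.9% of all tested genes. The median log2 fold change was 0.11 for the paternally and 0.13 for the maternally expressed genes. Genes expressed from either parental chromosome are thus among those that were higher in KO, and a difference between the classes was not tested, because genes of a cluster are not independent.

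The promoters of the genes that were higher in KO are shown for the 3 of them that have an entry. They are marked for the hexamer TGCCGC, which the imprint-keeping zinc finger protein ZFP57 binds when it is methylated. RefSeq promoters (GRCm38.p6, 250 bases before to 50 after a transcript start) were matched by symbol for 41 of the 53 genes, and for Plagl1, Zdbf2, Phlda2 and Copg2 among the 6 that differed. Capitals mark TGCCGC or its reverse complement GCGGCA, each sequence reading 5′ to 3′ on the gene's strand.
Plagl1, chr10:13090582-13090881, plus strand: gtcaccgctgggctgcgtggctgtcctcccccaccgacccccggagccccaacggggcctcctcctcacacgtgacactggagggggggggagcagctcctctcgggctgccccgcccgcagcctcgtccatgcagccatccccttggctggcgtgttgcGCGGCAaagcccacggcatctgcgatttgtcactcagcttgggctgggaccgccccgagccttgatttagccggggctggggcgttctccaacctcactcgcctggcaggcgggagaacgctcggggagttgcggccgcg
Zdbf2 upstream start, chr1:63200108-63200407, plus strand: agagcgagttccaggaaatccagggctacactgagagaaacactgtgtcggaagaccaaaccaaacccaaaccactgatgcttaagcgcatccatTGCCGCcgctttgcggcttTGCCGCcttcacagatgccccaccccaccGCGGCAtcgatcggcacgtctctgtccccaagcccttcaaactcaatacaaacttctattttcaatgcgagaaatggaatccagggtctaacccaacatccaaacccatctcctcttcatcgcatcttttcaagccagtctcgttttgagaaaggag
Zdbf2 annotated start, chr1:63273019-63273318, plus strand: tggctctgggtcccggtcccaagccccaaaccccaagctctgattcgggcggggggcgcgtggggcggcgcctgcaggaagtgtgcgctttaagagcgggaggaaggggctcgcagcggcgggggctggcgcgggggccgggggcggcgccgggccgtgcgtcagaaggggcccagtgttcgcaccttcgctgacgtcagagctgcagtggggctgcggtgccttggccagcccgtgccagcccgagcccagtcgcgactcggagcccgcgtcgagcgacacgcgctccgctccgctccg
Phlda2, chr7:143502475-143502774, minus strand: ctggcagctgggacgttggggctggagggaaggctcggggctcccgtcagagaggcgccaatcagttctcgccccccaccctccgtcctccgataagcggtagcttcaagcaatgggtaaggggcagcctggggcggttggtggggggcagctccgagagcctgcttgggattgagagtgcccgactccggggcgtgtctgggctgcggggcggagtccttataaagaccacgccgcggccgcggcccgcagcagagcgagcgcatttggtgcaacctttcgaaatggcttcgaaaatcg
The Plagl1 promoter held 1 hexamer and the upstream start of Zdbf2, which lies inside the annotated span of its neighbour Gpr1, held 3. The Zdbf2 start at the annotated gene and the Phlda2 promoter held 0, and the promoter of Copg2 held 1. The hexamer was present, on either strand and as the only motif searched, in 14 of 61 promoter entries of imprinted genes (23.0%) and in 3813 of all 32851 entries (11.6%). The hexamer itself holds a CG, the entries were not matched for CG content, and a difference between these shares was not tested. A match describes the letters only, and an entry can share bases with another entry of the same gene.

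**Figure D2:**
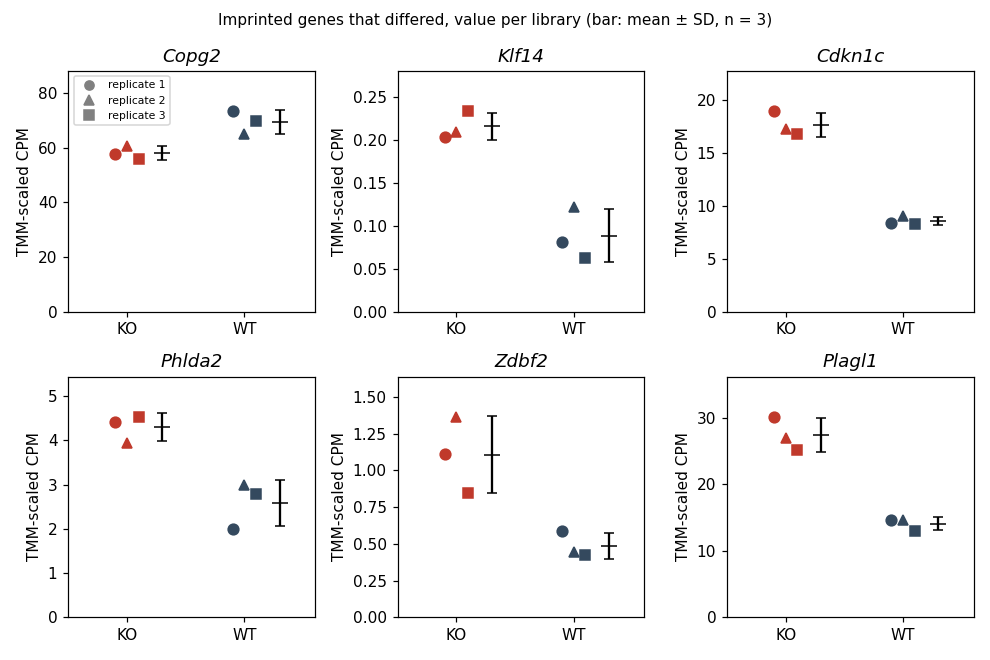
TMM-scaled CPM in each library (symbols by replicate number) for the 6 imprinted genes that differed, KO on the left and WT on the right of each panel, with mean ± SD over 3 libraries beside them. The KO libraries lie above the WT libraries for Klf14, Cdkn1c, Phlda2, Zdbf2 and Plagl1, and below them for Copg2.

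Plagl1 encodes a zinc finger transcription factor, known in mice as a regulator of a network of imprinted growth genes, and is expressed from the paternal chromosome. The gene (ENSMUSG00000019817, mm10 chromosome 10, 13060504 to 13131694, plus strand) was at 30.2, 27.0 and 25.2 CPM in KO replicates 1 to 3, against 14.7, 14.7 and 12.98 CPM in WT replicates 1 to 3. The lowest KO value lay well above the highest WT value. Means were 27.5 ± 2.54 CPM in KO and 14.1 ± 0.991 CPM in WT (SD, n = 3 each), a log2 fold change of 0.96 ± 0.10 (SE) with an edgeR adjusted p of 0.000121. Plagl1 passed the threshold without any 1 of the 6 libraries (log2 fold change 0.90 to 1.02) and with the Xist term (1.10, edgeR adjusted p = 0.00106).

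The Kcnq1 domain on distal chromosome 7 held the most members, 8, of which 7 were tested. In this domain the paternally expressed antisense RNA Kcnq1ot1 silences protein-coding genes on the same chromosome, some of them only in placenta, which leaves these expressed from the maternal copy. Cdkn1c (ENSMUSG00000037664, 143458339 to 143461050, minus strand) encodes p57, a cyclin-dependent kinase inhibitor. It was at 18.98, 17.2 and 16.8 CPM in KO replicates 1 to 3, against 8.37, 9.04 and 8.29 CPM in WT replicates 1 to 3. The groups did not overlap, and Cdkn1c rose by 1.04 ± 0.09 (SE) on the log2 scale (edgeR adjusted p = 5.34e-05). Cdkn1c passed the threshold without any 1 library (1.01 to 1.08) and with the Xist term (1.15, edgeR adjusted p = 0.000908). Cdkn1c shares 30.7% of its exon bases with the antisense gene Gm44732, which had no count in any library. Reads over shared bases can be left out by a counter for both genes, so the level of Cdkn1c is uncertain. Phlda2 (ENSMUSG00000010760, 143501545 to 143503150, minus strand) encodes a pleckstrin homology domain protein that restrains placental growth in mice. It was at 4.42, 3.94 and 4.53 CPM in KO replicates 1 to 3, against 2.003, 2.99 and 2.78 CPM in WT replicates 1 to 3. KO again lay above WT, with a log2 fold change of 0.73 ± 0.16 (SE) and an edgeR adjusted p of 0.00956. Phlda2 passed the threshold without any 1 library (0.59 to 0.84), and with the Xist term its value was 0.77 with an edgeR adjusted p of 0.0783.

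The silencing RNA and the other listed genes of the domain did not pass the threshold. Kcnq1ot1 was at 7.06, 9.27 and 9.53 CPM in KO replicates 1 to 3 and 11.0, 8.67 and 8.80 CPM in WT replicates 1 to 3. The groups overlapped, and the log2 difference was -0.14 ± 0.14 (SE; edgeR adjusted p = 0.502). Kcnq1, which encodes a voltage-gated potassium channel and overlaps Kcnq1ot1 on the other strand, was at 34.5, 30.2 and 30.5 CPM in KO replicates 1 to 3 and 22.5, 26.6 and 28.9 CPM in WT replicates 1 to 3. KO lay above WT here, but the log2 fold change of 0.29 ± 0.10 (SE) had an edgeR adjusted p of 0.0709. The value passed with DESeq2 (adjusted p = 0.0394), with no filter (edgeR adjusted p = 0.0471) and without WT replicate 3 (edgeR adjusted p = 0.0311). Cd81, a tetraspanin of the cell surface, had the highest level per length of the 53 genes, and was at 273, 285 and 298 CPM in KO and 226, 271 and 267 CPM in WT, with an edgeR adjusted p of 0.19. Tssc4, known in human cells as a factor of spliceosome assembly, was at 26.1, 28.6 and 26.5 CPM in KO and 20.3, 27.6 and 29.4 CPM in WT. The tetraspanin gene Tspan32 was low and averaged 0.263 CPM in KO and 0.237 CPM in WT. Ascl2, a transcription factor of the placenta, had at most 2 reads in any library and was not tested.

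Cdkn1c and Phlda2 lie on the same side of Kcnq1ot1, so all genes of the count tables from Ascl2 to Osbpl5 were set out by position, a window chosen after their values were seen. Of 36 genes in the window 17 were tested, 5 were higher in KO and 0 were lower in edgeR's test, with 8 higher and 1 lower at an unadjusted p under 0.05, and 7 higher and 0 lower with DESeq2. These counts include Cdkn1c and Phlda2, around which the window was drawn, and over all tested genes 12.0% were higher and 9.08% lower in edgeR's test, 18.7% and 17.6% at an unadjusted p under 0.05, and 22.6% were called in either direction with DESeq2. The 5 were Cdkn1c, Phlda2, the transporter gene Slc22a18 between them, and the decoy receptor genes Tnfrsf22 and Tnfrsf23. Slc22a18 was at 5.84, 5.08 and 6.80 CPM in KO and 2.39, 3.40 and 4.34 CPM in WT (log2 fold change 0.81 ± 0.19 (SE), edgeR adjusted p = 0.0144; 0.79 with the Xist term, adjusted p = 0.124; 0.69 without KO replicate 3, adjusted p = 0.0653). Tnfrsf22 averaged 97.3 ± 8.43 CPM in KO and 51.5 ± 5.70 CPM in WT, and Tnfrsf23 averaged 152 ± 17.8 CPM in KO and 68.3 ± 8.63 CPM in WT (SD, n = 3 each). Their log2 fold changes were 0.92 and 1.15, with edgeR adjusted p-values of 0.000146 and 5.95e-05, and as close paralogs they may share reads. The window counts and the values of Tnfrsf22 and Tnfrsf23 are from fits without the Xist term. The rise was not shared by all neighbours: Nap1l4, the histone chaperone gene next to Phlda2, was at 144 ± 4.64 CPM in KO and 161 ± 2.86 CPM in WT (SD, n = 3 each; edgeR adjusted p = 0.1). Tnfrsf26, next to Tnfrsf22, lay above WT in KO without a call (log2 fold change 0.57, edgeR adjusted p = 0.0768).

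**Figure D3:**
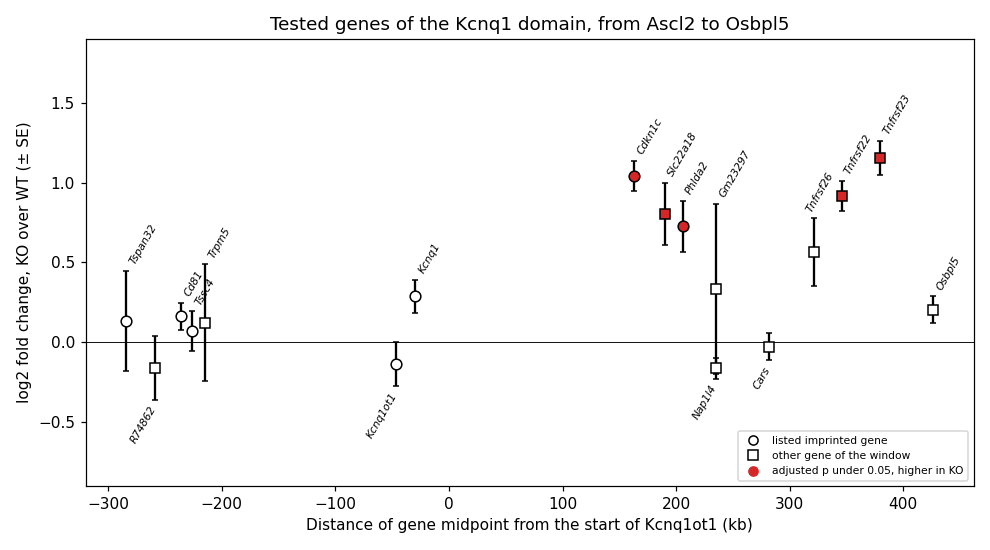
Log2 fold change, KO over WT, with standard errors as bars, for the 17 tested genes from Ascl2 to Osbpl5, placed by the distance in kilobases of their midpoint from the start of Kcnq1ot1. Circles are genes of the list of 53, and squares are other genes of the window. Of the squares, Slc22a18, Nap1l4 and Osbpl5 belong to a separate list of other imprinted genes, whose called members are named below. Whether the remaining squares are imprinted was not considered. Red marks an adjusted p under 0.05. The 5 red points lie on the right, from Cdkn1c to Tnfrsf23. Between them lie Nap1l4 at -0.16, Gm23297 at 0.33, Cars at -0.03 and Tnfrsf26 at 0.57, none of them red.

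Zdbf2 and Klf14 were also higher in KO, at low levels. Zdbf2 encodes a zinc finger protein that promotes feeding and growth of newborn mice, and it is expressed from the paternal chromosome. The gene (ENSMUSG00000027520, chromosome 1, 63273265 to 63314576, plus strand) was at 1.11, 1.37 and 0.845 CPM in KO replicates 1 to 3, against 0.591, 0.442 and 0.425 CPM in WT replicates 1 to 3. These values rest on 83 to 130 reads per KO library and 41 to 51 per WT library. KO lay above WT, with a log2 fold change of 1.19 ± 0.24 (SE) and an edgeR adjusted p of 0.00624. The value was 1.01 to 1.36 without any 1 library, past the threshold each time, and 1.20 with the Xist term (edgeR adjusted p = 0.0624). Gpr1, its neighbour and a chemerin receptor gene, averaged 0.757 ± 0.123 CPM in KO and 0.782 ± 0.180 CPM in WT (SD, n = 3 each; edgeR adjusted p = 0.896).

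The Mest domain on chromosome 6 held 1 gene that was higher in KO and 1 that was lower. Klf14 (ENSMUSG00000073209, 30956023 to 30959078, minus strand), a maternally expressed Krüppel-like transcription factor gene, had 18, 20 and 23 reads in KO replicates 1 to 3 and 7, 13 and 6 reads in WT replicates 1 to 3. In CPM these were 0.204, 0.210 and 0.234 CPM in KO, against 0.0811, 0.122 and 0.0621 CPM in WT, without overlap. Klf14 rose by 1.26 ± 0.36 (SE) on the log2 scale (edgeR adjusted p = 0.0302), and DESeq2 gave an adjusted p of 0.0876. Copg2 (ENSMUSG00000025607, 30747554 to 30896794, minus strand) encodes a subunit of the COPI vesicle coat. It was at 57.7, 60.7 and 55.8 CPM in KO replicates 1 to 3, against 73.5, 64.9 and 69.6 CPM in WT replicates 1 to 3, and fell by 0.26 ± 0.08 (SE) on the log2 scale with an edgeR adjusted p of 0.0351. Both calls held without WT replicate 2 and were lost without any other single library, and that of Copg2 was also lost with the replicate block (edgeR adjusted p = 0.055). With the Xist term the log2 fold changes were 1.18 for Klf14 (edgeR adjusted p = 0.206) and -0.26 for Copg2 (edgeR adjusted p = 0.222). Mest itself, a paternally expressed hydrolase-like gene, was at 25.0, 22.6 and 23.6 CPM in KO and 27.9, 25.2 and 22.7 CPM in WT, with an edgeR adjusted p of 0.517. Mest and Copg2 share 912 exon bases on opposite strands, 23.1% of those of Mest and 17.8% of those of Copg2, so without a stated strand setting their reads cannot be fully told apart.

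Markers of several cell types were also higher in KO. Of the podocyte markers, 5 of 11 tested were higher, beside 12.0% of all tested genes, and their summed level was 688 to 724 CPM in KO and 603 to 682 CPM in WT. Nes carried most of that sum, at 517 to 524 CPM in KO and 490 to 572 CPM in WT. Without Nes, left out after its values were seen, the other 10 markers summed to 169 to 207 CPM in KO and 110 to 112 CPM in WT. The KO to WT ratio was then 1.66, beside 1.08 with Nes. Podocytes are known to express Cdkn1c. Of the endothelial markers 7 of 13 were higher (sum 33.0 to 45.5 CPM in KO, 22.4 to 23.8 CPM in WT), of the fibroblast and pericyte markers 7 of 13 tested (126 to 208 CPM in KO, 119 to 159 CPM in WT), and of the leukocyte markers 6 of 13 tested (53.7 to 62.2 CPM in KO, 40.9 to 48.0 CPM in WT). Of the tubular lists, 5 of 8 tested proximal markers (76.9 to 95.3 CPM in KO, 54.2 to 64.0 CPM in WT) and 8 of 14 tested distal nephron and collecting duct markers (3897 to 3929 CPM in KO, 3423 to 4008 CPM in WT) were higher. The exact two-sided permutation p of the full sums was 0.1, the smallest possible, for the podocyte, endothelial, leukocyte and proximal lists. It was 0.4 for the fibroblast and pericyte list and 0.8 for the distal nephron and collecting duct list. No marker of these 6 lists was at 0 in all 6 libraries. In bulk RNA more cells of a type and more RNA per cell cannot be told apart, and the part of these cells in the values of Cdkn1c, Plagl1, Phlda2, Zdbf2 and Klf14 was not tested.

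Most other loci were expressed and held no call. In the Peg3 domain on chromosome 7, Peg3, a paternally expressed zinc finger gene, was at 408, 470 and 509 CPM in KO replicates 1 to 3 and 582, 419 and 479 CPM in WT replicates 1 to 3. The groups overlapped widely, with a log2 fold change of -0.09 ± 0.12 (SE) and an edgeR adjusted p of 0.602. Its neighbour Usp29, a ubiquitin protease gene, was at 10.3, 9.74 and 11.4 CPM in KO and 11.0, 8.13 and 9.64 CPM in WT. Zim1, a maternally expressed zinc finger gene, was at 2.49, 3.35 and 3.77 CPM in KO and 3.29, 2.51 and 3.30 CPM in WT. Neither gene separated the groups, with edgeR adjusted p-values of 0.497 for Usp29 and 0.773 for Zim1.

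In the Sgce-Peg10 domain on chromosome 6, the retrotransposon-derived gene Peg10 was at 30.6, 24.2 and 21.4 CPM in KO and 31.1, 31.5 and 27.5 CPM in WT, with a log2 fold change of -0.24 ± 0.12 (SE) and an edgeR adjusted p of 0.178. The 2 Xist-positive KO libraries were the lowest of the 6 for Peg10, and the log2 fold change was 0.028 with the Xist term. Sgce, the epsilon-sarcoglycan gene that starts next to Peg10 on the other strand, was at 11.0, 9.18 and 9.15 CPM in KO and 11.5, 10.8 and 10.7 CPM in WT, with the Xist-positive KO libraries lowest here too and an edgeR adjusted p of 0.262. Of the maternally expressed genes of the domain, Ppp1r9a, which encodes the actin-binding protein neurabin-1, was at 72.5, 76.8 and 70.2 CPM in KO and 80.1, 65.3 and 63.6 CPM in WT. Asb4, a gene of a ubiquitin ligase adaptor, was at 14.1, 10.1 and 9.49 CPM in KO and 9.67, 10.9 and 8.98 CPM in WT, with KO replicate 1 above the other 5 libraries. The calcitonin receptor gene Calcr averaged 0.580 ± 0.0975 CPM in KO and 0.446 ± 0.0952 CPM in WT (SD, n = 3 each). The edgeR adjusted p-values of these 3 genes were 0.618, 0.392 and 0.298. In the Peg3 and Sgce-Peg10 domains together, 0 of 8 genes had an unadjusted p under 0.05 and DESeq2 called 0. Over all tested genes 18.7% were higher and 17.6% lower at an unadjusted p under 0.05, and DESeq2 called 22.6% in either direction.

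The Prader-Willi and Angelman domain on chromosome 7 held Ndn, the gene of necdin, a growth suppressor of neurons, whose level varied within the KO group. Ndn was at 13.9, 21.7 and 21.8 CPM in KO replicates 1 to 3, against 14.8, 13.6 and 14.3 CPM in WT replicates 1 to 3. KO replicate 1 lay among the WT values and the 2 Xist-positive KO libraries lay above them. The log2 difference was 0.43 ± 0.15 (SE; edgeR adjusted p = 0.0625) over all libraries, 0.63 (adjusted p = 0.00423) without KO replicate 1 and -0.037 (adjusted p = 0.894) with the Xist term. Over all libraries Ndn passed with DESeq2 (adjusted p = 0.0198), with no filter (edgeR adjusted p = 0.00225) and with the replicate block (edgeR adjusted p = 0.0462). Peg12, a relative of the Wnt pathway gene Frat1, averaged 1.14 ± 0.137 CPM in KO and 0.820 ± 0.0557 CPM in WT without overlap (SD, n = 3 each; edgeR adjusted p = 0.0906), and the makorin gene Mkrn3 averaged 0.694 ± 0.203 CPM in KO and 0.935 ± 0.0739 CPM in WT (SD, n = 3 each; edgeR adjusted p = 0.215). Snrpn, the SmN splicing protein gene, was at 5.48, 5.83 and 5.17 CPM in KO and 5.44, 4.58 and 5.27 CPM in WT. It shares 34.1% of its exon bases with other genes, Gm38393 and Snurf among them, so its level is uncertain. Ube3a, the ubiquitin ligase gene of the maternal chromosome in neurons, was at 73.5, 77.0 and 82.8 CPM in KO and 103, 88.3 and 73.5 CPM in WT (edgeR adjusted p = 0.252). Ube3a shares 27.3% of its exon bases with genes on the other strand, Snhg14 among them, so its level is uncertain too. Magel2 had 0 reads in all 6 libraries.

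Genes of growth control stood at the next 3 loci. Igf2r, whose maternally expressed receptor clears insulin-like growth factor 2, was at 289, 286 and 264 CPM in KO and 272, 244 and 251 CPM in WT, with a log2 fold change of 0.13 ± 0.08 (SE) and an edgeR adjusted p of 0.239. Its antisense silencer RNA Airn was at 1.71, 1.24 and 2.46 CPM in KO and 1.95, 1.65 and 1.86 CPM in WT (edgeR adjusted p = 0.984). Grb10, an adaptor that dampens insulin and growth factor signalling, was at 231, 261 and 229 CPM in KO and 235, 224 and 221 CPM in WT (edgeR adjusted p = 0.45). Its neighbour Ddc, an aromatic amino acid decarboxylase gene, was low, at 0.240 CPM in KO and 0.185 CPM in WT. Igf2, the growth factor gene itself, had 11, 25 and 20 reads in KO replicates 1 to 3 and 6, 13 and 10 reads in WT replicates 1 to 3. In CPM the KO values of Igf2 lay above the WT values by a narrow margin, with a log2 fold change of 0.98 ± 0.40 (SE) and an edgeR adjusted p of 0.0993. H19, the noncoding RNA of the same domain, had 5, 12 and 9 reads in KO replicates 1 to 3 and 5, 4 and 2 reads in WT replicates 1 to 3. The groups overlapped in CPM, and H19 was not tested.

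At the remaining loci no gene passed the threshold in edgeR's test. Peg13, a noncoding RNA gene in an intron of Trappc9, was at 13.8, 13.04 and 13.6 CPM in KO and 11.4, 11.7 and 10.9 CPM in WT. The groups did not overlap, and the log2 fold change of 0.25 ± 0.09 (SE) had an adjusted p of 0.0632 with edgeR and 0.0417 with DESeq2. Its host gene Trappc9, of a vesicle tethering complex, was at 26.4, 26.3 and 26.8 CPM in KO and 20.9, 26.9 and 30.7 CPM in WT, with KO inside the WT range (edgeR adjusted p = 0.935). H13, a signal peptide peptidase gene, was at 138, 132 and 146 CPM in KO and 116, 118 and 129 CPM in WT (edgeR adjusted p = 0.0853). Mcts2, a retrogene in an intron of H13, was at 6.69, 6.86 and 6.997 CPM in KO and 7.46, 7.42 and 7.73 CPM in WT (edgeR adjusted p = 0.332). KO and WT did not overlap for H13 or for Mcts2, with KO above WT for H13 and below it for Mcts2. The value of H13 passed without WT replicate 3 (edgeR adjusted p = 0.0417).

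Commd1, a gene of copper transport and NF-kB control, was at 6.21, 7.54 and 6.32 CPM in KO and 8.03, 7.76 and 8.77 CPM in WT (log2 fold change -0.29 ± 0.11 (SE), edgeR adjusted p = 0.0896). Zrsr1, a splicing factor-like retrogene within the span of Commd1, was at 4.61, 4.78 and 5.83 CPM in KO and 4.97, 4.53 and 4.15 CPM in WT (edgeR adjusted p = 0.414). The 2 genes share 412 exon bases on opposite strands, 9.17% of those of Zrsr1 and 6.94% of those of Commd1. Without a stated strand setting their reads cannot be fully told apart. KO lay below WT for Commd1, while the groups overlapped for Zrsr1. Inpp5f, an inositol phosphatase gene, was at 29.2, 29.0 and 27.5 CPM in KO and 35.2, 32.6 and 31.0 CPM in WT, again without overlap (log2 fold change -0.21 ± 0.08 (SE), edgeR adjusted p = 0.096). Impact, an inhibitor of the GCN2 stress kinase, was at 13.7, 14.6 and 11.7 CPM in KO and 17.5, 12.7 and 13.7 CPM in WT (edgeR adjusted p = 0.489). Nap1l5, a nucleosome assembly protein-like gene, had 30, 22 and 24 reads in KO and 18, 20 and 8 reads in WT (edgeR adjusted p = 0.16). Gnas, which encodes the stimulatory G protein alpha subunit, was at 4.26, 4.88 and 4.99 CPM in KO and 4.26, 3.90 and 3.75 CPM in WT (edgeR adjusted p = 0.167). Gnas shares 22.0% of its exon bases with its antisense RNA Nespas and the gene Gm20721, and reads over shared bases can be left out by a counter, so its level is uncertain. Nespas had 6 to 16 reads per library and shares 38.5% of its exon bases with other genes, Gnas among them.

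**Figure D4:**
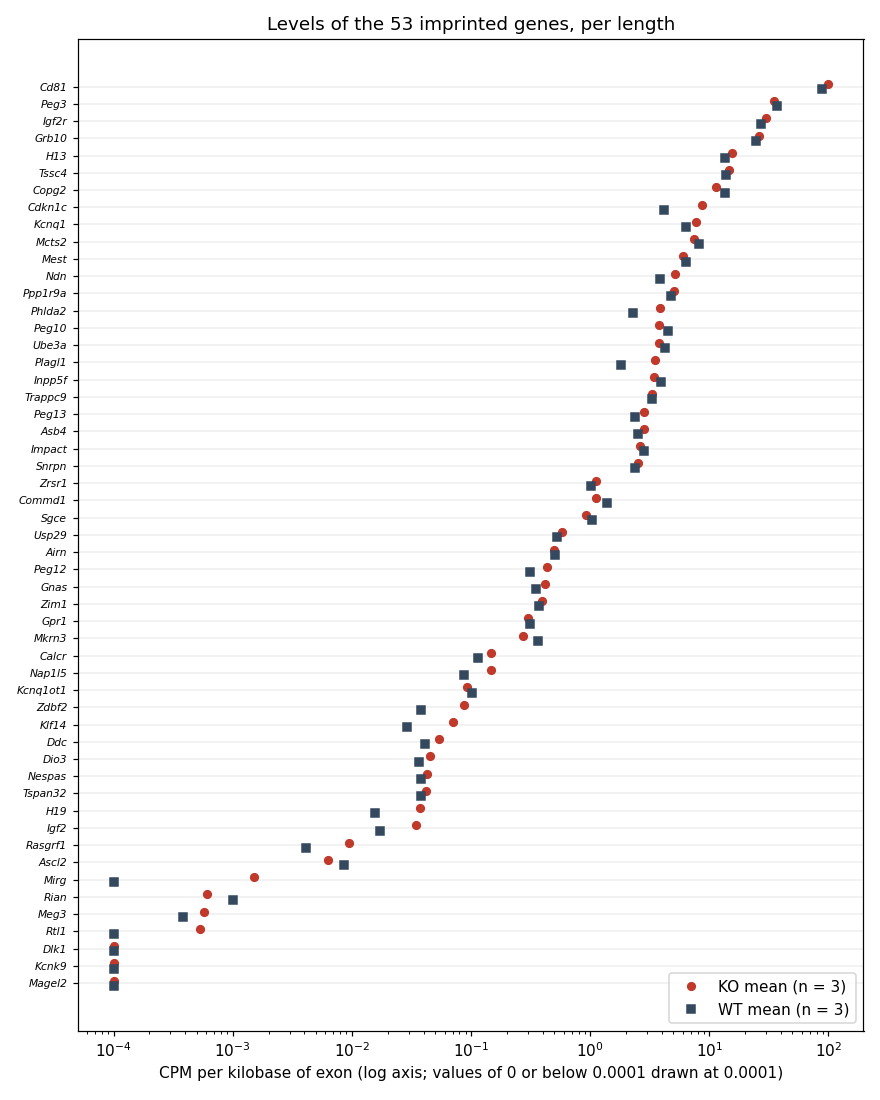
Mean level per kilobase of exon (CPM per kb, log axis) of all 53 imprinted genes in KO (circles) and WT (squares), 3 libraries each, ordered by the KO level. Cd81 tops the order at 99.1 in KO and 88.5 in WT, and Mirg, Rian, Meg3, Rtl1, Dlk1, Kcnk9 and Magel2 lie at the bottom, with means of 0 drawn at the left edge.

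Per kilobase of exon, levels spanned a wide range, and KO and WT shared much the same order. Cd81 was highest at 99.1 CPM per kb in KO and 88.5 CPM per kb in WT, followed by Peg3 at 34.7 in KO and 37.0 in WT, Igf2r at 30.1 in KO and 27.5 in WT, and Grb10 at 26.5 in KO and 24.9 in WT. Cdkn1c stood at 8.66 CPM per kb in KO and 4.20 CPM per kb in WT, Phlda2 at 3.83 in KO and 2.31 in WT, and Plagl1 at 3.51 in KO and 1.81 in WT. Zdbf2 stood at 0.0875 CPM per kb in KO and 0.0384 CPM per kb in WT, and Klf14 at 0.0707 in KO and 0.0290 in WT, near the low end of the tested genes. The 11 genes under the count filter included all 6 of the Dlk1-Dio3 domain on chromosome 12, a cluster known for high expression in embryo and placenta. Dlk1, a growth-regulating transmembrane protein gene, had 0 reads in every library, as did Magel2 and the potassium channel gene Kcnk9. A count of 0 allows up to 3 reads, a limit of 0.0282 to 0.0347 CPM per library. Rtl1 had 1 read in all 6 libraries together, and the noncoding RNA genes Meg3, Rian and Mirg had 5, 8 and 3. Dio3, which inactivates thyroid hormone, had 4 to 12 reads per library. Rasgrf1, a Ras exchange factor gene of brain, had 13, 11 and 5 reads in KO and 5, 5 and 3 reads in WT. Under the count filter, a difference in these 11 genes was not tested in the main fit.

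Among 26 other imprinted genes, 19 were tested, 5 were higher in KO (Nnat, Sfmbt2, Slc22a18, Tfpi2 and Pde10a) and 2 were lower (Jade1 and Slc38a4), beside 12.0% higher and 9.08% lower of all tested genes. Slc22a18 was already counted in the Kcnq1 window above. The median log2 fold change of the list was 0.10. Nnat, a paternally expressed proteolipid gene, had the largest change of these 26 at 59.8, 49.9 and 55.0 CPM in KO against 3.94, 4.07 and 4.37 CPM in WT (log2 fold change 3.73 ± 0.10 (SE), edgeR adjusted p = 4.93e-09). Its value was 3.86 with the Xist term, where it was the only call of the 26. Sfmbt2, a Polycomb group gene expressed from the paternal chromosome in placenta, averaged 1.61 ± 0.0749 CPM in KO and 0.924 ± 0.0644 CPM in WT, and Jade1, a histone acetylation cofactor gene, averaged 50.9 ± 3.01 CPM in KO and 67.3 ± 5.67 CPM in WT (SD, n = 3 each). Their log2 fold changes were 0.80 (edgeR adjusted p = 0.00714) and -0.40 (edgeR adjusted p = 0.00747). The phosphodiesterase gene Pde10a averaged 7.68 ± 1.15 CPM in KO and 5.21 ± 0.452 CPM in WT (edgeR adjusted p = 0.0123), and Tfpi2, an inhibitor of serine proteases, averaged 0.3801 ± 0.141 CPM in KO and 0.174 ± 0.0198 CPM in WT (SD, n = 3 each; edgeR adjusted p = 0.0386).

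Genes that set or keep imprints were lower in KO for 3 of 23 tested and higher for 0 in edgeR's test, with 9 lower and 1 higher at an unadjusted p under 0.05 and 4 lower and 0 higher with DESeq2. Over all tested genes 9.08% were lower and 12.0% higher in edgeR's test, 17.6% and 18.7% at an unadjusted p under 0.05, and 22.6% were called in either direction with DESeq2. The median log2 fold change of this list was -0.11. Zfp57 was at 10.5, 11.0 and 12.0 CPM in KO replicates 1 to 3, against 16.5, 14.2 and 15.1 CPM in WT replicates 1 to 3. It fell by 0.45 ± 0.10 (SE) on the log2 scale, with an edgeR adjusted p of 0.00943. Zfp445, which encodes a second protein that keeps imprints, averaged 46.1 ± 0.738 CPM in KO and 57.3 ± 8.06 CPM in WT (SD, n = 3 each; log2 fold change -0.31, edgeR adjusted p = 0.0406). Smchd1, a chromatin protein of the inactive X chromosome and of some imprinted clusters, averaged 151 ± 6.26 CPM in KO and 185 ± 18.9 CPM in WT (SD, n = 3 each; log2 fold change -0.29, edgeR adjusted p = 0.0298). All 3 calls were lost with the Xist term (log2 fold changes -0.54, -0.34 and -0.31, edgeR adjusted p = 0.0623, 0.207 and 0.195 for Zfp57, Zfp445 and Smchd1) and without KO replicate 1. The calls of Zfp445 and Smchd1 were also lost without KO replicate 2 or 3, and without WT replicate 1 for Zfp445 or WT replicate 2 for Smchd1. Trim28, the corepressor that ZFP57 recruits, averaged 369.8 ± 12.4 CPM in KO and 410.2 ± 27.3 CPM in WT (edgeR adjusted p = 0.183). Dnmt1, the maintenance DNA methyltransferase, averaged 273 ± 6.96 CPM in KO and 266 ± 10.9 CPM in WT (edgeR adjusted p = 0.744), and Ctcf, the insulator protein gene, averaged 104 ± 0.633 CPM in KO and 117 ± 7.81 CPM in WT (SD, n = 3 each; edgeR adjusted p = 0.102).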

How the data were processed

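The authors deposited whole-number read counts per Ensembl gene, 1 table per library, with no normalization. Trimmomatic 0.38, STAR 2.7.1a, HTSeq 0.11.2 and mm10 are named per the submitters' processing notes, and the annotation release, strand setting and treatment of multi-mapping reads are not stated there. Groups and replicate numbers came from the sample titles. Symbols, positions and exon lengths came from GENCODE M21, which matched 48144 of 48526 genes.

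Counts were filtered with filterByExpr, scaled with TMM and tested with edgeR 4.0.16 in R 4.3.3 (quasi-likelihood, genotype as the term, Benjamini-Hochberg over 17571 genes, threshold 0.05). Standard errors were obtained by dividing the size of each log2 fold change by √F. Alternatives were DESeq2 1.42.0, its size factors, no filter (any gene with 1 read), a replicate block, a term for (or omission of) libraries with Xist above 10 CPM, and omission of each library. Genes, lists and alternatives were chosen with earlier results of these data known. Every listed gene past the threshold, or above about 2 CPM, is given by library and the rest by mean or count. From the other lists came up to 6 called genes by smallest adjusted p and the best known of the rest. Replicates of a group differed by 25.0 to 85.7 chi-square per degree of freedom, so none was a copy. Figures were drawn with matplotlib 3.10.9. Limits for a count of 0 cover counting error only.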

Additional observations from a re-analysis of the deposited data

How the results depend on the processing

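Plagl1 and Cdkn1c kept their direction and call under every alternative run, and none of the 6 imprinted genes that differed changed sign. With the Xist term 1163 genes were called in all, with 2 imprinted genes higher and 0 lower, 1 paternally and 1 maternally expressed gene higher and 0 maternally expressed genes lower. Without the Xist-positive libraries, which leaves 1 KO library whose spread is taken from WT, 907 genes were called, and the counts for imprinted genes were again 2, 0, 1, 1 and 0. In both of these fits 1 other imprinted gene was higher and 0 were lower, and 0 imprint maintenance genes were lower. DESeq2 called 4 paternally expressed genes higher and 1 other imprinted gene lower, and with no filter 6 imprint maintenance genes were lower. Leaving out each library in turn gave 1683 to 3766 calls over all genes (1683 without KO replicate 1, 1933 without KO replicate 3), 0 to 1 imprinted and maternally expressed genes lower, 2 to 5 other imprinted genes higher (2 without KO replicate 3) and 1 to 2 lower, and 0 to 7 imprint maintenance genes lower (0 without KO replicate 1, 1 without KO replicate 2 or 3, 7 without WT replicate 3). The summed podocyte markers stood at a KO to WT ratio of 1.66 without Nes, left out after its values were seen, beside 1.08 with it. Fewer samples enter the fits without a library, and other causes were not tested.

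The replicate numbers did not pair the libraries: same-numbered KO and WT libraries had deviations correlated at 0.04, -0.15 and 0.03. With the replicate block 3594 genes were called, 6 imprinted genes were higher and 0 lower, with Ndn gained and Copg2 lost, 0 maternally expressed genes were lower and 1 other imprinted gene was lower.

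Of 504 values of single imprinted genes under the alternatives, 447 kept direction and side, 20 lost a call, 10 gained one and 27 changed sign, in 12 genes without a call, with adjusted p of at least 0.377. With the Xist term log2 fold changes were -0.28 (Zim1), 0.028 (Peg10), 0.0023 (Sgce), -0.037 (Ndn) and -0.23 (Nespas), and without the Xist-positive libraries -0.28, 0.026, 0.0012, -0.038 and -0.23. Trappc9 was at -6.67e-05 with no filter. With single libraries left out the ranges were -0.20 to 0.052 (Peg3), -0.052 to 0.25 (Zim1), -0.22 to 0.0034 (Kcnq1ot1), -0.064 to 0.17 (Tssc4), -0.30 to 0.20 (Airn), -0.078 to 0.39 (Nespas), -0.19 to 0.12 (Gpr1), -0.11 to 0.15 (Trappc9) and -0.23 to 0.024 (Impact).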
